A study of Mus musculus with 4 samples.

Results

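The collagen genes of the mouse sciatic nerve were followed across the cell classes and mesenchymal layers of injured, uninjured and neonatal nerve. Members were all genes whose symbol consists of Col, a number, the letter a and a second number. There were 44 such genes among the 22716 genes of the 4 count matrices. A gene that a matrix does not list was counted as 0, which concerned Col9a1, Col19a1, Col22a1, Col24a1 and Col25a1 in the uninjured nerve.

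Collagens are triple-helical proteins of the extracellular matrix. Fibrillar collagens (types I, III, V and XI) form the tensile fibers of connective tissue, fibril-associated collagens decorate those fibers, network-forming type IV builds the basement membrane, and type VI forms beaded filaments around cells. In a nerve, the epineurium wraps the whole nerve, the perineurium ensheathes each fascicle, and the endoneurium is the loose matrix between axons, where Schwann cells and capillaries each rest on a basement membrane.

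All mice were wild-type CD1, and cells were freed with collagenase and trypsin before Drop-seq, a droplet method that counts captured transcripts by unique molecular identifiers (UMIs). The injured sample was the distal sciatic nerve segment of adult mice 3 days after unilateral resection (3 DPI), and the uninjured sample was the nerve of adult mice. Both adult samples, and a neonatal one from P2 to P3 pups, were cleared with myelin removal beads, whereas a second neonatal sample from P3 to P4 pups was sorted by FACS. Each sample is 1 library, so 3 DPI and uninjured nerve also differ in library, depth and dissected segment, and these cannot be told apart.

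After filtering, 2163 cells at 3 DPI, 1838 uninjured, 2191 neonatal FACS and 5420 neonatal bead cells remained, with library totals between 4513814 and 8123103 UMIs and a median of 994 to 1792 UMIs per cell. Libraries shared at most 3 barcodes. Cells were clustered without the collagen genes and classes were named from marker genes, none of which is a collagen, and are written as endoneurial-like and so on. Mesenchymal cells split into endoneurial-like (108 to 419 cells per library), epineurial-like (166 to 435) and perineurial-like cells. The perineurial-like layer was not scored at 3 DPI, because fewer than 3 of its 4 markers reached 10% of the cells of any cluster, and perineurial cells there may lie within other classes. At 3 DPI, 308 bridge-like cells (marked by Dlk1, Mest and Lrrc15) and 168 dividing mesenchymal cells, led by Top2a, formed further clusters. Levels are given as CPM, the UMIs of a gene scaled to an equal UMI total in every class. Each UMI stands for 1 captured 3′ end, so CPM is not divided by gene length.

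Collagen transcripts took the largest share of UMIs in the mesenchymal classes of every library. They made up 3.46% of the UMIs of endoneurial-like cells at 3 DPI, 5.12% in uninjured, 12.2% in neonatal FACS and 9.42% in neonatal bead cells, and 6.31% to 10.2% in epineurial-like cells. Perineurial-like cells spanned the widest range, with 1.41% in uninjured nerve against 16.1% and 9.64% in the neonatal preparations. Schwann-like cells held 0.761% to 1.41%, vascular smooth muscle (VSM)/pericyte-like cells 0.434% to 1.77% and endothelial-like cells 0.232% to 0.641%. Between 76.2% and 85.8% of all collagen UMIs of a library came from Col1a1, Col1a2 and Col3a1. Of the 44 members, 34 at 3 DPI, 34 in uninjured, 32 in FACS and 32 in bead cells had a UMI in at least 2% of the cells of at least 1 class. After every cell was thinned to 500 UMIs, these numbers were 24, 28, 28 and 27.

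**Figure D1:**
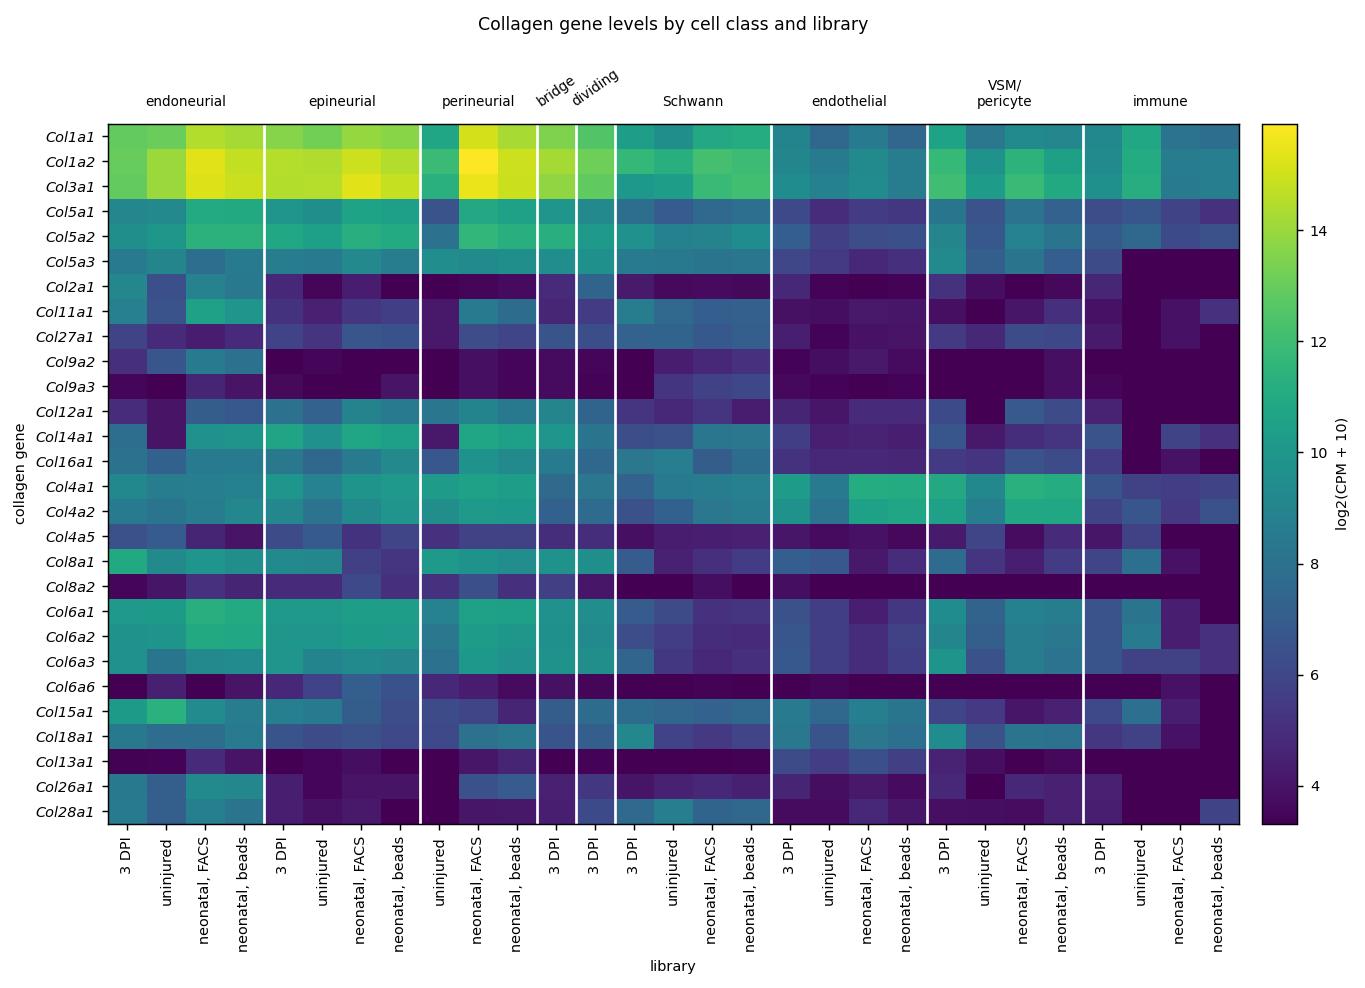
Levels of the 28 collagens that passed the filter on low counts, as log2(CPM + 10), in each cell class of each library (columns), with genes as rows and the color scale giving the level. Brighter colors stand for higher levels. The rows of Col1a1, Col1a2 and Col3a1 are the brightest in the mesenchymal columns. Col2a1, Col9a2, Col26a1 and Col28a1 are brighter in endoneurial-like than in epineurial-like columns. Col4a1 and Col4a2 are among the brightest rows in the endothelial-like and VSM/pericyte-like columns.

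The most abundant collagens were also counted in cells not known to make them, as free RNA in droplets can give. Col1a2, a chain of type I collagen, had a UMI in 47.4% of immune-like cells at 3 DPI, 51.9% in FACS and 28.9% in bead nerve. The median depth of these immune-like cells was 926.5, 1938 and 823.5 UMIs. Levels in endothelial-like cells, at 342 to 648 CPM, were of the same size as in the immune-like cells of those 3 libraries, at 393 to 640 CPM. The uninjured immune-like class had only 21 cells, and 1 of these held 24 of its 47 Col1a2 UMIs. Endoneurial-like cells had a Col1a2 UMI in 97.8% to 100% of cells. Thinned to 500 UMIs, the share in immune-like cells was 25.1% at 3 DPI, 16.7% in FACS and 25% in bead nerve. Levels of the abundant fibrillar collagens in Schwann-like, endothelial-like and VSM/pericyte-like cells should be read beside these values, and each comparison was repeated after subtracting an estimate of free RNA.

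The fibrillar collagens of types I and III did not separate the endoneurial-like from the epineurial-like layer. Col1a1, the other chain of type I, was at 7578 CPM at 3 DPI, 8539 uninjured, 22455 FACS and 18997 bead in endoneurial-like cells. In epineurial-like cells it was at 12700, 9627, 15603 and 13165 CPM, so that the endoneurial-like cells were lower in both adult libraries and higher in both neonatal ones. The log2 difference between the layers was 0.20 ± 0.58 (SE) for Col1a1, -0.09 ± 0.53 for Col1a2 and -0.32 ± 0.59 for Col3a1, the type III chain of pliable tissue, and none passed the edgeR test (adjusted p = 0.916, 0.975 and 0.845). Col5a1 and Col5a2, the type V chains that limit the width of type I fibrils, lay between 563 and 2730 CPM in both layers.

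Layers were compared with edgeR's quasi-likelihood test on UMIs summed per class and library, with the library as a block, across the 10587 genes that passed the filter on low counts. Of the 44 collagens 28 passed it. A collagen that passed only through the class where it is high had to differ, so counts of members are a description. The 16 that did not pass are Col4a3, Col4a4, Col4a6, Col6a4, Col6a5, Col7a1, Col9a1, Col10a1, Col11a2, Col17a1, Col19a1, Col20a1, Col22a1, Col23a1, Col24a1 and Col25a1. The classes rest on other genes of the same cells, so a class difference describes how collagens follow those genes, and the p-values measure the spread between class sums of 4 libraries.

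Endoneurial-like cells were marked by a set of cartilage-type and minor collagens. Against epineurial-like cells, 8 of the 28 collagens tested were higher (4.53% of all genes tested) and 2 were lower (5.55% of all genes tested). The median log2 difference was 0.01 over the collagens and 0.03 over all genes. By structural group, 2 of 9 fibrillar collagens were higher, as were 2 of 2 multiplexins, 1 of 2 short-chain network collagens, 1 of 5 fibril-associated collagens and the 2 others, Col26a1 and Col28a1. Of the fibril-associated collagens 1 was lower, as was 1 of 4 beaded filament collagens, and 0 of 3 basement membrane network chains passed. The higher ones were Col9a2, Col26a1, Col2a1, Col28a1, Col11a1, Col15a1, Col8a1 and Col18a1, and the lower ones Col6a6 and Col12a1.

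Col2a1, the fibrillar collagen of cartilage, was at 549 CPM at 3 DPI, 75.2 uninjured, 473 FACS and 315 bead in endoneurial-like cells, against 17.6, 1.15, 10.1 and 0 CPM in epineurial-like cells. The groups did not overlap, and the log2 difference was 5.68 ± 0.45. No other class of the fit exceeded 25.7 CPM of Col2a1. It passed the filter mainly through endoneurial-like cells, so its p-value is not given. Of its partners in cartilage fibrils, Col9a2 and Col11a1 were also higher in this layer than in epineurial-like cells. The type IX chain Col9a3 was instead highest in Schwann-like cells of both neonatal libraries. Col9a2, a type IX chain on the surface of such fibrils, was at 22.2, 93.0, 366 and 257 CPM in endoneurial-like cells and at 0, 1.15, 0 and 0 CPM in epineurial-like cells. It had few UMIs in other classes and so passed the filter through the class where it is high, and its levels are given without the test. Col11a1, a type XI chain that nucleates fibrils, was at 438, 84.6, 1454 and 942 CPM against 26.4, 12.6, 30.4 and 40.4 CPM, a log2 difference of 4.50 ± 0.58 (edgeR adjusted p = 3.11e-06). Col11a1 was not limited to that layer, since Schwann-like cells held 394, 186, 126 and 138 CPM, more than the endoneurial-like cells of uninjured nerve.

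Col26a1, a short collagen of little known function, was at 336, 131, 611 and 553 CPM in endoneurial-like cells and at no more than 10.6 CPM in epineurial-like cells of any library (log2 difference 5.97 ± 0.50). Its next highest class in the fit was at 17.1 CPM at 3 DPI and 12.1 CPM uninjured. In neonatal nerve this was the perineurial-like class, at 78.5 CPM in FACS and 113 CPM in bead cells. Col26a1 passed the filter mainly through endoneurial-like cells, so its p-value is not given. Col28a1, a von Willebrand factor A domain collagen known from peripheral nerve, was at 344, 132, 419 and 281 CPM against at most 10.6 CPM (5.30 ± 0.52, edgeR adjusted p = 4.14e-08). Both were thus high in each endoneurial-like sum and near 0 in each epineurial-like one.

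The other members higher in endoneurial-like cells were present in both layers. Col15a1, a multiplexin of the basement membrane zone, was at 1163, 2654, 659 and 392 CPM in endoneurial-like cells at 3 DPI, uninjured, FACS and bead, against 429, 364, 119 and 69.3 CPM in epineurial-like cells (2.33 ± 0.47, edgeR adjusted p = 0.000983). Its level was higher in endoneurial-like cells of each library, but the ranges of both layers overlapped. Col8a1, a short-chain network collagen, differed by 2.30 ± 0.58 (edgeR adjusted p = 0.00892), and in uninjured nerve its levels were close, at 640 and 564 CPM. Col18a1, the multiplexin that gives rise to endostatin, differed by 2.02 ± 0.50 (edgeR adjusted p = 0.00764), with 213 to 351 CPM in endoneurial-like and 57.8 to 86.2 CPM in epineurial-like cells. In edgeR, the Col8a1 call was lost without the neonatal FACS library (adjusted p = 0.111) or the bead library (0.127), and the Col18a1 call without the bead library (0.0914). After subtraction of free RNA, Col2a1, Col9a2, Col26a1, Col28a1 and Col6a6 kept their calls, and Col8a1, Col11a1, Col12a1, Col15a1 and Col18a1 did not (edgeR adjusted p = 0.0783 to 0.615, with log2 differences of the same sign). Calls over all genes fell from 1068 to 134 with this subtraction.

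In the opposite direction, Col12a1, a fibril-associated collagen of dense connective tissue, was at 20.2, 5.64, 121 and 99.4 CPM in endoneurial-like cells at 3 DPI, uninjured, FACS and bead, and at 257, 147, 482 and 352 CPM in epineurial-like cells. Its log2 difference was -2.61 ± 0.46 (edgeR adjusted p = 0.000217), with the endoneurial-like level lower in each of the 4 libraries. Col6a6, a less common chain of type VI, was at 0, 11.3, 0 and 5.63 CPM against 17.6, 48.2, 126 and 80.9 CPM (-3.79 ± 0.61). It passed the filter through its epineurial-like sums, so its p-value is not given. Col14a1, another fibril-associated collagen, was at 224, 5.64, 805 and 902 CPM against 1605, 820, 1733 and 1352 CPM, but did not pass the test (-2.18 ± 0.75, edgeR adjusted p = 0.0637).

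**Figure D2:**
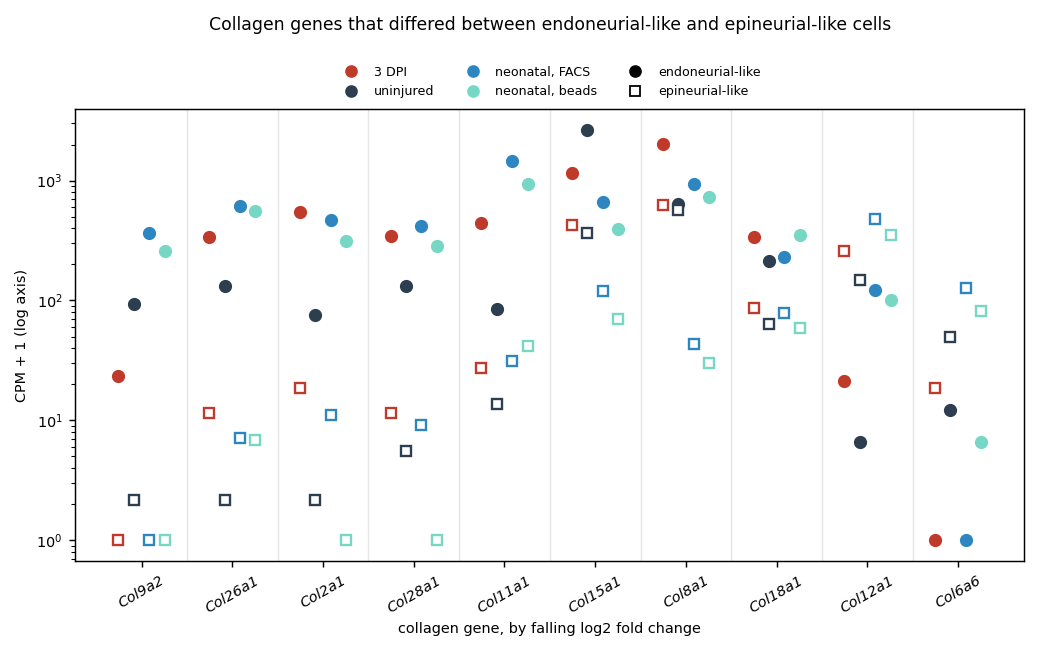
CPM + 1 on a log axis of the 10 collagens that differed between layers, with filled circles for endoneurial-like and open squares for epineurial-like cells, colored by library, 1 point per library. For Col2a1, Col9a2, Col26a1 and Col28a1 all 4 circles lie above all 4 squares, and for Col12a1 and Col6a6 the squares lie above the circles.

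The promoter of Col8a1 is shown because it is the window among the 8 higher genes that lies wholly before the RefSeq gene start and overlaps no annotated exon. It holds the 250 bases before the transcription start (RefSeq, GRCm38.p6, written 5′ to 3′ on the strand of the gene). Capitals mark GGGCGG, the GC box, and ACAAT, the core of SOX binding motifs, each searched on both strands (as CCGCCC and ATTGT too).
Col8a1 (chr16:57754738-57754987, minus strand): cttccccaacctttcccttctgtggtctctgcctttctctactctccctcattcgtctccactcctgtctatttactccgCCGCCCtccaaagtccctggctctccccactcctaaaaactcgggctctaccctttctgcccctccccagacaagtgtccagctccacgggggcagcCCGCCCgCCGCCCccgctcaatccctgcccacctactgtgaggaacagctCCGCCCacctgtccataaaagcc
The window holds 4 GC boxes, all on the opposite strand, and no ACAAT. Of 32851 windows of this length, 32.7% hold GGGCGG and 27.7% hold ACAAT on either strand, so the letters alone are common. A match is a description of the sequence and not a binding site.

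Few collagens were called between perineurial-like cells and the other layers in the fit over all libraries. In edgeR, 10 of the 28 collagens and 1612 of 10587 genes had an unadjusted p under 0.05. In uninjured nerve, collagens made up 1.41% of perineurial-like UMIs, against 5.12% in endoneurial-like and 6.31% in epineurial-like cells. Both neonatal preparations went the other way, with 16.1% against 12.2% and 10.2% in FACS and 9.64% against 9.42% and 7.69% in bead cells. Against the mean of endoneurial-like and epineurial-like cells, 1 of 28 collagens was higher (2.97% of all genes tested) and 3 were lower (1.60% of all genes tested), with a median log2 difference of 0.31 over the collagens and -0.03 over all genes. Col12a1 was higher, at 296 CPM uninjured, 512 FACS and 336 bead (1.59 ± 0.40, edgeR adjusted p = 0.0166). Its level was close to the epineurial-like one of 482 and 352 CPM in both neonatal libraries, so the difference from the mean of both layers rests there on the endoneurial-like level. This call was lost without the FACS library (0.0659), without the uninjured library (0.0871), with only the compared classes in the fit (0.0577) and with DESeq2 (adjusted p = 0.0505). Col15a1 (-3.38 ± 0.57, edgeR adjusted p = 0.000314), Col28a1 (-2.85 ± 0.69, 0.0119) and Col2a1 (-4.24 ± 0.75) were lower. Col2a1 passed the filter mainly through endoneurial-like cells, so its p-value is not given. Col28a1 lost its call without the 3 DPI, the FACS or the bead library (edgeR adjusted p = 0.0681 to 0.0731), and Col2a1, Col15a1 and Col28a1 lost theirs when cells were classed singly by their marker genes (edgeR adjusted p = 0.239 to 0.853). After subtraction of free RNA none of the 4 calls remained in edgeR, and 5 of the 28 collagens had an unadjusted p under 0.05. Calls over all genes fell from 483 to 28.

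A small group of type IV and type VI chains was highest in the 64 uninjured perineurial-like cells and did not pass the filter on low counts. Col4a3 and Col4a4, chains of the specialized basement membrane network also found in kidney and lung, were at 82.3 CPM (10 UMIs) and 98.8 CPM there. Col4a4 was at no more than 11.3 CPM in any other named class of any library, and Col4a3 at no more than 8.01 CPM. Col6a5, a rare type VI chain, was at 132 CPM in these cells and at no more than 15.0 CPM in any other class. Both neonatal perineurial-like sums held about 1 CPM of Col4a3 and Col6a5 and about 3 CPM of Col4a4. With 1 uninjured library, these differences were not tested.

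Schwann-like cells had most collagens at lower levels than the mesenchymal layers. Against endoneurial-like and epineurial-like cells, 3 of 28 collagens were higher (15.5% of all genes tested) and 20 were lower (19.6% of all genes tested), with a median log2 difference of -2.40 over the collagens and -0.04 over all genes. The type VI chains stood among the largest differences, with Col6a6 at -5.68, Col6a2 at -5.61 ± 0.56 (edgeR adjusted p = 8.33e-09), Col6a1 at -5.22 and Col6a3 at -4.26, and Col8a2 and Col2a1 followed at -4.24 and -4.21. Col6a2 was at 68.6 CPM at 3 DPI, 38.7 uninjured, 21.6 FACS and 18.3 bead in Schwann-like cells, next to 870 to 2010 CPM in endoneurial-like cells.

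The 3 collagens higher in Schwann-like cells than the mean of both layers were Col28a1, Col9a3 and Col27a1. Col28a1 was at 188, 414, 157 and 175 CPM at 3 DPI, uninjured, FACS and bead, and differed by 2.0 ± 0.37 from that mean (edgeR adjusted p = 9.02e-05). The difference comes from the low epineurial-like level. Schwann-like cells were below endoneurial-like cells at 3 DPI and in both neonatal libraries, and above them in uninjured nerve. Col28a1 was at or above 132 CPM in both endoneurial-like and Schwann-like cells of every library, and at no more than 61.3 CPM in the other named classes. Col27a1, a fibrillar collagen with a role in cartilage, was at 144, 155, 101 and 128 CPM (1.48 ± 0.32, edgeR adjusted p = 0.000574). Col9a3, a type IX chain, was at 0, 26.6, 46.8 and 56.5 CPM (3.00 ± 0.65), and was thus listed at 0 in the 141 Schwann-like cells at 3 DPI, where a count of 0 allows up to 6.64 CPM. It passed the filter through its Schwann-like sums, so its p-value is not given. After subtraction of free RNA, 9 of the 28 collagens were called, among them Col9a3, while Col28a1 (edgeR adjusted p = 0.0648) and Col27a1 (0.0717) were not. Calls over all genes fell from 3714 to 1383.

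Col16a1, a fibril-associated collagen, and Col5a3, a type V chain, did not differ detectably between Schwann-like cells and the layers. Col16a1 was at 312, 409, 123 and 206 CPM in Schwann-like cells at 3 DPI, uninjured, FACS and bead. Col5a3 was at 365, 327, 279 and 299 CPM there, and at 0 to 66.5 CPM in immune-like cells.

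Of the type IV collagens of the basement membrane, the vascular classes carried Col4a1 and Col4a2, whereas Col4a5 was called lower there. In uninjured nerve, perineurial-like cells held more Col4a1 (1202 CPM) and Col4a2 (733 CPM) than either vascular class. Col4a1 and Col4a2, the chains of the network found in nearly all basement membranes, were at 1943 and 1464 CPM at 3 DPI, 572 and 404 uninjured, 2510 and 1837 FACS, and 2248 and 1797 bead in the VSM/pericyte-like class. The endothelial-like class had Col4a1 at 1183, 373, 2188 and 2150 CPM. Against endoneurial-like and epineurial-like cells, 2 of 28 collagens were higher (11.8% of all genes tested) and 20 lower (14.1% of all genes tested) in the VSM/pericyte-like class. In the endothelial-like class 3 were higher (17.8% of all genes tested) and 21 lower (19.0% of all genes tested).

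In VSM/pericyte-like cells, Col4a1 differed by 1.17 ± 0.31 (edgeR adjusted p = 0.0056) and Col4a2 by 1.14 ± 0.27 (edgeR adjusted p = 0.0023). The Col4a1 call was lost without the FACS library (0.0593) or the bead library (0.0893), and both calls after subtraction of free RNA (edgeR adjusted p = 0.26 and 0.262). In endothelial-like cells the differences were 0.80 ± 0.31 for Col4a1 (edgeR adjusted p = 0.0449) and 0.70 ± 0.27 for Col4a2 (0.047), and both calls were lost with DESeq2 (adjusted p = 0.0709 and 0.0741), without either neonatal library (0.219 to 0.34) and after subtraction of free RNA (0.416 and 0.477). The uninjured nerve stood apart here, since its endothelial-like Col4a1 level of 373 CPM lay below its epineurial-like level of 472 CPM. Perineurial-like cells were at 1202, 1475 and 1279 CPM of Col4a1 in uninjured, FACS and bead nerve, but did not pass the test against the other layers (1.02 ± 0.35, edgeR adjusted p = 0.101). Col4a1 was called in edgeR without the 3 DPI library, with only the compared classes in the fit and with no filter on low counts.

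Col13a1, a transmembrane collagen of cell junctions, was the member with the largest upward difference in endothelial-like cells. It was at 67.2, 39.1, 75.6 and 42.3 CPM there at 3 DPI, uninjured, FACS and bead, against no more than 19.4 CPM in any other named class (4.23 ± 0.57). Col13a1 passed the filter through its endothelial-like sums, so its p-value is not given. The collagens that were lower in endothelial-like cells were led by Col1a2 (-5.93), Col1a1 (-5.83), Col3a1 (-5.77), Col6a1 (-5.48), Col14a1 (-5.39) and Col5a1 (-5.29). In VSM/pericyte-like cells the lower ones were led by Col8a2 (-7.0), Col6a6 (-6.99), Col14a1 (-4.74), Col15a1 (-4.62), Col1a1 (-4.49) and Col11a1 (-3.91). The median log2 difference over the collagens was -3.86 for the endothelial-like and -2.79 for the VSM/pericyte-like class, next to -0.01 and -0.08 over all genes. After subtraction of free RNA, 22 collagens were called in the endothelial-like class and 8 in the VSM/pericyte-like class. The subtraction sets endothelial-like sums to 0 for genes with the lower mean there, so lower calls in that class are partly fixed by it. Calls over all genes fell from 3896 to 2056 in the endothelial-like class. No such count is given for the VSM/pericyte-like class, so its 8 calls do not single out collagens.

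**Figure D3:**
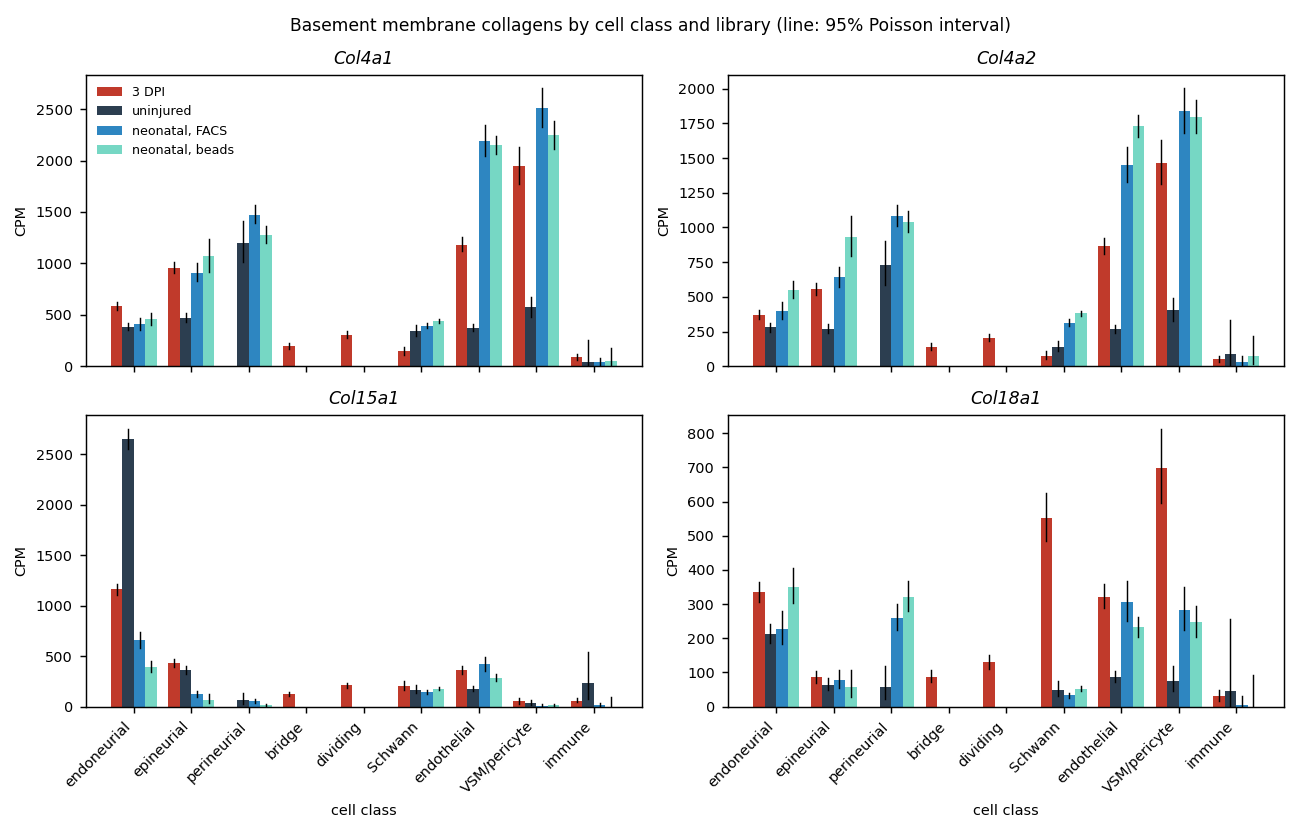
Levels in CPM of the basement membrane collagens Col4a1, Col4a2, Col15a1 and Col18a1 by cell class, with 1 bar per library and lines for the exact Poisson 95% interval. Col4a1 and Col4a2 bars are highest in VSM/pericyte-like and endothelial-like cells of the neonatal libraries, Col15a1 bars are highest in endoneurial-like cells, and the 3 DPI bars of Col18a1 are the highest of their class in Schwann-like, VSM/pericyte-like and endothelial-like cells.

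Injured and uninjured nerve were then compared class by class. With 1 library per condition no test was possible, and ratios of CPM are given with exact 95% intervals that cover counting error only. A gene was counted as past the fold at a ratio of at least 2 or at most 0.5, with a mean of at least 20 CPM and at least 20 UMIs.

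In endoneurial-like cells, 8 of the 23 collagens with enough UMIs were at least 2-fold higher at 3 DPI (15.0% of all genes) and 4 were at least 2-fold lower (7.78% of all genes), and the median log2 ratio was 0.40 against 0.23 over all genes. Col14a1 was at 224 CPM at 3 DPI and 5.64 CPM uninjured, a ratio of 39.8 (18.1 to 109). This ratio was smaller when each cell was thinned to 500 UMIs (log2 ratio 3.81) or classed by its marker genes (3.53) than in the full data (5.31). Col2a1 was at 549 and 75.2 CPM (ratio 7.31, 5.80 to 9.31), and Col11a1 at 438 and 84.6 CPM (5.18, 4.15 to 6.53).

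Col8a1, at 2015 against 640 CPM, had a ratio of 3.15 (2.90 to 3.43), and Col6a3, the large chain of type VI, at 826 against 291 CPM, one of 2.84 (2.50 to 3.22). Its partners Col6a1 (1084 and 1168 CPM) and Col6a2 (870 and 921 CPM) were not past the fold. Col27a1, Col28a1 and Col26a1 had ratios of 2.83, 2.62 and 2.57.

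The abundant collagens of the endoneurial-like layer lay on the other side. Col1a2 was at 8186 CPM at 3 DPI and 16606 CPM uninjured (ratio 0.493, 0.482 to 0.505), Col3a1 at 7531 and 16502 CPM (0.456, 0.446 to 0.467), and Col15a1 at 1163 and 2654 CPM (0.438, 0.413 to 0.466). Col9a2 was at 22.2 and 93.0 CPM (0.239, 0.156 to 0.358). Col1a1, at 7578 and 8539 CPM, stayed inside the fold, so the makeup of the 3 abundant transcripts also differed, with Col1a1 at 32.5% of their sum at 3 DPI and 20.5% in uninjured nerve. The summed level of the mesenchymal markers Pdgfra, Dcn, Lum and Serpinf1 was 21656 CPM at 3 DPI and 68964 CPM uninjured in these cells, and the median depth was 4064 and 2157 UMIs. The part of these differences in the collagen ratios was not tested.

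Epineurial-like cells had fewer members past the fold. Of 20 collagens, 2 were at least 2-fold higher at 3 DPI (5.74% of all genes) and 1 was lower (2.49% of all genes), with a median log2 ratio of 0.36 against 0.11 over all genes. Col4a1 was at 958 CPM at 3 DPI and 472 CPM uninjured (ratio 2.03, 1.81 to 2.28), and Col4a2 at 554 and 270 CPM (2.06, 1.77 to 2.40). Both were inside the fold when cells were thinned (log2 ratio 0.77 for Col4a1 and 0.92 for Col4a2) or classed singly by their marker genes (0.42 and 0.34). Col6a6 was at 17.6 and 48.2 CPM (0.365, 0.203 to 0.636). Just inside the fold were Col14a1 (1605 and 820 CPM) and Col6a3 (944 and 496 CPM). The makeup of the class differed, with 285 cells in a Comp-led and 91 in a Pi16-led cluster in uninjured nerve, and 173 and 262 cells at 3 DPI. Within the Comp-led clusters Col8a1 was at 1213 CPM at 3 DPI and 702 CPM uninjured, and within the Pi16-led ones at 93.0 and 22.7 CPM, while the class as a whole was at 619 and 564 CPM.

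In Schwann-like cells, 4 of 20 collagens were at least 2-fold higher at 3 DPI (18.5% of all genes) and 2 were lower (14.2% of all genes), with a median log2 ratio of 0.59 against 0.13 over all genes. Col18a1 was at 551 CPM at 3 DPI and 48.4 CPM uninjured, a ratio of 11.4 (7.21 to 19.0). The neonatal Schwann-like levels of Col18a1, at 32.6 CPM in FACS and 52.5 CPM in bead cells, were close to the uninjured one. Col8a1 (ratio 9.69), Col6a3 (5.13) and Col11a1 (2.11) were also past the fold.

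In the same cells Col4a1 was at 146 CPM at 3 DPI and 344 CPM uninjured (0.425, 0.312 to 0.573), and Col28a1 at 188 and 414 CPM (0.454, 0.346 to 0.593). With cells classed singly by their marker genes, Col4a1, Col8a1 and Col11a1 were inside the fold (log2 ratio -0.37, 0.81 and 0.79). Mesenchymal markers summed to 677 CPM at 3 DPI and 1302 CPM uninjured in Schwann-like cells. The class also differed in makeup. In uninjured nerve it held a cluster of 275 cells, with non-myelinating Schwann markers at 2110 CPM, and another of 81 cells, with these at 38.9 CPM, whereas at 3 DPI it was 1 cluster of 141 cells with 1292 CPM. The proliferation markers Mki67 and Top2a summed to 909 CPM at 3 DPI and 55.7 CPM uninjured. The part of this makeup in the ratios was not tested.

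In VSM/pericyte-like cells, 14 of 15 collagens were at least 2-fold higher at 3 DPI (13.6% of all genes) and 0 were lower (11.0% of all genes), with a median log2 ratio of 2.16 against 0.10 over all genes. Only Col15a1, with a ratio of 1.60, was inside the fold. Col6a3 was at 916 and 76.1 CPM (ratio 12.0, 7.53 to 20.4), Col18a1 at 698 and 76.1 CPM (9.17, 5.69 to 15.6), Col8a1 at 201 and 28.0 CPM (7.18, 3.22 to 18.8), and Col5a2 at 522 and 100 CPM (5.22, 3.37 to 8.38). Col14a1 had a ratio of 11.8 (2.89 to 103) from 2 uninjured UMIs.

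Fibrillar types I and III were also past the fold, with Col1a2 at 3505 CPM at 3 DPI and 857 CPM uninjured (ratio 4.09, 3.52 to 4.78), Col1a1 at a ratio of 5.06 and Col3a1 at one of 3.54. The 3505 CPM of Col1a2 compares with 549 CPM in endothelial-like and 640 CPM in immune-like cells of the same library. Mesenchymal markers in VSM/pericyte-like cells summed to 633 CPM at 3 DPI and 1021 CPM uninjured, and the VSM/pericyte markers to 24593 and 21431 CPM. After subtraction of free RNA, 13 collagens were past the fold.

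In endothelial-like cells, 10 of 17 collagens were at least 2-fold higher at 3 DPI (5.25% of all genes) and 0 were lower (4.55% of all genes), with a median log2 ratio of 1.21 against 0.03 over all genes. The basement membrane members were Col18a1 at 322 and 86.5 CPM (ratio 3.72, 3.00 to 4.64), Col4a2 at 864 and 270 CPM (3.20, 2.83 to 3.63), Col4a1 at 1183 and 373 CPM (3.17, 2.85 to 3.53) and Col15a1 at 363 and 178 CPM (2.04, 1.73 to 2.41). Col14a1 (3.59), Col5a2 (2.95), Col1a1 (2.93), Col5a1 (2.92), Col6a3 (2.50) and Col6a2 (2.31) stood at levels near those of immune-like cells, for Col1a1 506 CPM in endothelial-like and 583 CPM in immune-like cells at 3 DPI. With cells thinned to 500 UMIs, 4 collagens remained past the fold, namely Col1a1, Col4a1, Col4a2 and Col18a1.

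**Figure D4:**
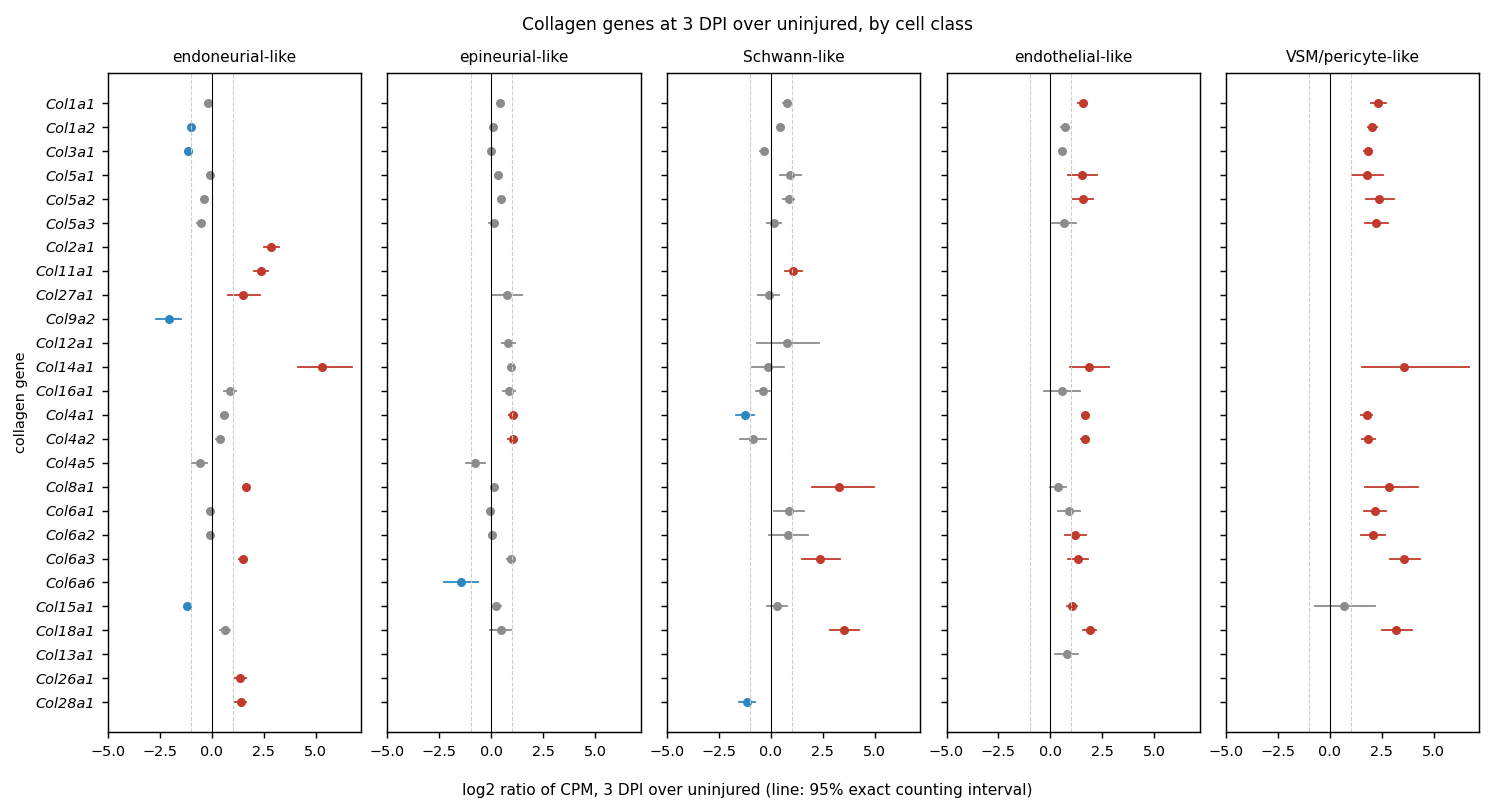
The log2 ratio of CPM at 3 DPI to CPM in uninjured nerve for the collagens with enough UMIs, in 5 panels by cell class, with lines for the exact 95% interval, red for at least 2-fold higher, blue for at least 2-fold lower, gray for neither and dashed lines at a 2-fold difference. Red and blue points mix in endoneurial-like cells, whereas the VSM/pericyte-like panel holds 14 red points and no blue one.

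The bridge-like class was sought at 3 DPI only, and the dividing mesenchymal cluster was formed in that library. The bridge markers Dlk1, Mest and Lrrc15 summed to 998 CPM in bridge-like cells, but to between 4571 and 8987 CPM in the mesenchymal layers of both neonatal libraries. Bridge-like cells held 512 CPM of Col12a1, above the 257 CPM of epineurial-like and 20.2 CPM of endoneurial-like cells of the same library. They had 957 CPM of Col14a1 and 19084 CPM of Col1a2, but 19.4 CPM of Col2a1 and 12.0 CPM of Col26a1. The dividing cells held 158 CPM of Col2a1 and 154 CPM of Col12a1. Collagens made up 5.48% of the UMIs of bridge-like and 2.91% of those of dividing cells.

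Neonatal and uninjured adult nerve were compared with the 2 neonatal preparations side by side. A gene was past the fold where both preparations were at least 2-fold on the same side of the uninjured level. These ratios share the uninjured library with those at 3 DPI.

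The neonatal endoneurial-like cells had higher levels of fibril-associated and several fibrillar collagens. Of 24 collagens, 13 were at least 2-fold higher (8.90% of all genes) and 2 were lower (6.24% of all genes). The median log2 ratio was 1.35 in FACS and 1.13 in bead cells, against 0.24 and 0.27 over all genes. All 5 fibril-associated members with enough UMIs were past the fold, with Col14a1 at 805 and 902 CPM against 5.64 CPM (ratio 143 and 160) and Col12a1 at 121 and 99.4 CPM against 5.64 CPM (21.5 and 17.6). Both uninjured levels rest on 6 UMIs. Col9a1, a type IX chain, was at 31.5 and 41.3 CPM and is not listed in the uninjured matrix, so that its ratios were at least 11.2 and 14.6, set against a floor of 3 counts in the class.

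Col11a1 (17.2 and 11.1), Col2a1 (6.29 and 4.19) and Col26a1 (4.68 and 4.24) were also higher in neonatal endoneurial-like cells. Col15a1 was at 659 and 392 CPM against 2654 CPM (ratio 0.248 and 0.148). Col4a5, a type IV chain, was at 14.5 and 5.63 CPM against 117 CPM (0.125 and 0.0483). These 2 were the members that were lower.

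In epineurial-like cells, 5 of 22 collagens were at least 2-fold higher (8.06% of all genes) and 3 were lower (5.08% of all genes). The median log2 ratio was 0.84 and 0.39 in FACS and bead cells, against 0.21 and 0.27 over all genes. Col27a1 (3.25 and 2.82), Col12a1 (3.28 and 2.40), Col11a1 (2.41 and 3.20), Col4a2 (2.37 and 3.45) and Col16a1 (2.04 and 3.42) were higher. Col8a1 was at 42.5 and 28.9 CPM against 564 CPM uninjured (0.0753 and 0.0512), Col15a1 at 0.329 and 0.191 of the uninjured level, and Col4a5 at 0.247 and 0.487.

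Of the 4 classes compared between ages, the perineurial-like one had the largest median ratio. Of 22 collagens, 14 were at least 2-fold higher in both neonatal preparations (11.4% of all genes) and 0 were lower (15.5% of all genes). The median log2 ratio was 1.98 and 1.93 in FACS and bead cells, against -0.26 and -0.10 over all genes. Col1a1 was at 35158 and 19876 CPM against 1688 CPM uninjured, a ratio of 20.8 (18.2 to 24.0) and 11.8 (10.3 to 13.6), and Col3a1 at 47178 and 30412 CPM against 2519 CPM (18.7 and 12.1). Col5a1 was at 1960 and 1452 CPM against 82.3 CPM (23.8 and 17.6). Col14a1, at 1671 and 1377 CPM against 8.23 CPM, and Col11a1, at 359 and 209 CPM against 8.23 CPM, each rest on 1 uninjured UMI, so that the lower ends of their intervals, 36.4 and 29.9 for Col14a1 and 7.76 and 4.49 for Col11a1, bound them better than the ratios.

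The basement membrane and network collagens of this layer differed less between ages than the fibrillar ones. Col4a1 (1475 and 1279 against 1202 CPM), Col4a2 (1083 and 1040 against 733 CPM), Col8a1 (870 and 714 against 1111 CPM), Col5a3 (630 and 763 against 724 CPM) and Col12a1 (512 and 336 against 296 CPM) were inside the fold. The neonatal perineurial-like cells were weakly marked. Their perineurial markers Slc2a1, Casq2, Msln and Cldn1 summed to 509 CPM in FACS and 682 CPM in bead cells, against 3951 CPM in the 64 uninjured cells, although they were the highest of their libraries. Mesenchymal markers summed to 12185 and 12797 CPM against 22893 CPM. The neonatal class held 244 FACS and 425 bead cells, but 110 and 289 at a clustering resolution of 0.8, and 113 and 200 when cells were classed singly by their marker genes. With cells classed singly, 16 collagens were past the fold, and the log2 ratio of Col1a1 was 2.28 against 3.56 in the full data (the lower of both preparations).

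**Figure D5:**
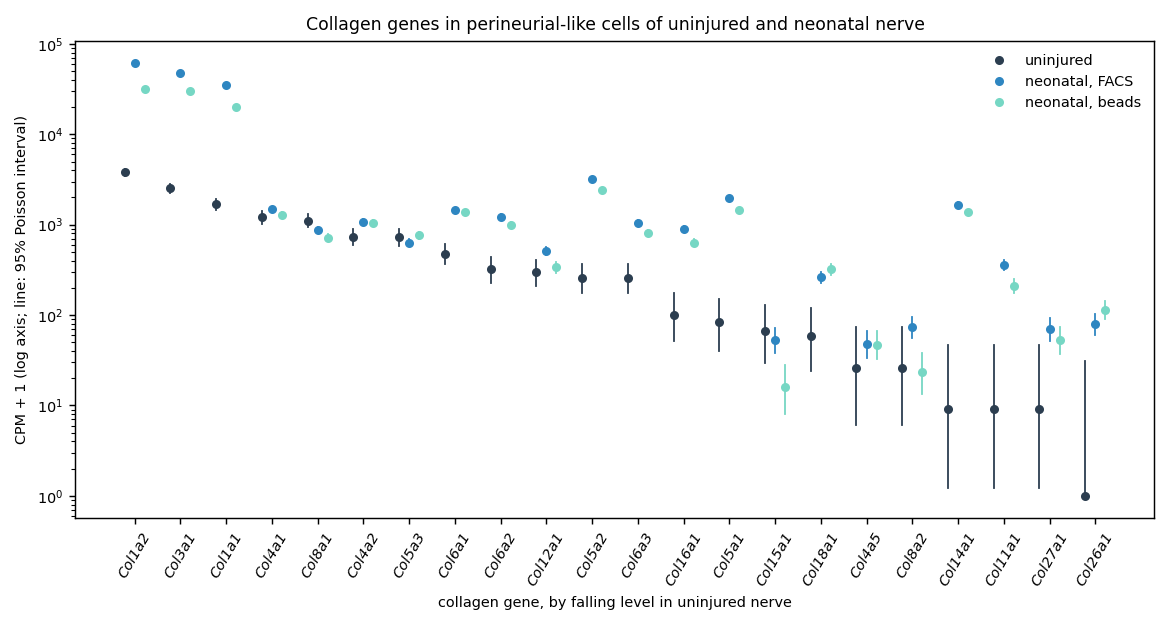
CPM + 1 on a log axis of 22 collagens in perineurial-like cells of uninjured adult, neonatal FACS and neonatal bead nerve, 1 point per library. The uninjured points of Col1a1, Col1a2, Col3a1, Col5a1, Col5a2, Col11a1 and Col14a1 lie far below both neonatal points, and the 3 points of Col4a1, Col5a3 and Col8a1 lie at similar heights.

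In Schwann-like cells, 4 of 20 collagens were at least 2-fold higher (11.7% of all genes) and 2 were lower (7.83% of all genes) in neonatal than in uninjured nerve. The median log2 ratio was -0.06 and 0.23 in FACS and bead cells, against 0.14 and 0.17 over all genes. Col28a1 was at 157 and 175 CPM against 414 CPM (0.379 and 0.423). Col14a1 (3.88 and 4.04), Col3a1 (2.84 and 3.49), Col1a1 (2.53 and 2.83) and Col4a2 (2.23 and 2.71) were higher, and Col6a1 (0.394 and 0.439) was lower. The ratios of Col1a1, Col3a1 and Col6a1 changed sign under other settings. The makeup of the class differed here too, since 366 of the 1221 FACS cells formed a cluster with non-myelinating markers at 134 CPM, while 2342 of the 3659 bead cells formed another with these at 4023 CPM. Its part in the ratios was not tested.

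Chains of types I, IV, V and VI that assemble into 1 molecule followed each other. Some pairs outside a shared molecule did so as closely, as given below, and the chains of type VIII did so less. Over the 29 named class sums of the 4 libraries, the Pearson correlation of log2(CPM + 10) was 0.98 for Col1a1 and Col1a2, 0.97 for Col4a1 and Col4a2, 0.98 for Col5a1 and Col5a2, 0.98 for Col6a1 and Col6a2, and 0.92 for Col6a1 and Col6a3. For Col8a1 and Col8a2 it was 0.55, and for the type IV chains Col4a5 and Col4a6 0.41. These lower values rest on low counts. Only 4 class sums held at least 20 UMIs of both Col8a1 and Col8a2, and Col4a6 had 35 UMIs in all 4 libraries. The type IX chains stood in different classes, with Col9a2 at 366 CPM in FACS and 257 CPM in bead endoneurial-like cells against 16.5 and 24.6 CPM in Schwann-like cells, and Col9a3 at 46.8 and 56.5 CPM in Schwann-like cells. These sums share libraries, depth and free RNA, so the correlations are a description. The ratio of Col1a2 to Col1a1 UMIs ran from 1.08 in 3 DPI endoneurial-like cells to 4.43 in FACS VSM/pericyte-like cells, with a median of 1.85, and that of Col6a3 to Col6a1 from 0.247 in FACS endoneurial-like cells to 1.40 in 3 DPI Schwann-like cells.

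Among genes outside a shared molecule, the abundant fibrillar collagens were close, with 0.98 for Col3a1 and Col1a2 and 0.97 for Col3a1 and Col5a1, and Col16a1 was most like Col5a2, at 0.90. Col12a1 was most like Col8a2 (0.85), Col14a1 most like Col5a1 (0.84), Col26a1 most like Col2a1 (0.83) and Col28a1 most like Col11a1 (0.80). Col18a1 was most like Col4a1, at 0.64. Several collagens are neighbors in the genome. In RefSeq (GRCm38.p6) Col4a1 and Col4a2 on chromosome 8 start head to head and overlap by 85 bases (r = 0.97), and Col4a3 and Col4a4 on chromosome 1 by 114 bases (r = 0.89). Col4a3 and Col4a4 had only 45 and 68 UMIs in all 4 libraries. Col4a4 was at 98.8 CPM in uninjured perineurial-like cells and 11.3 CPM in the next class there, so their r rests largely on that class sum. Col3a1 and Col5a2 lie tail to tail on chromosome 1 with 24624 bases between them (r = 0.95), whereas Col6a5 and Col6a6, 27823 bases apart on chromosome 9, had r = 0.31. Counts near such overlaps are uncertain where the assignment of reads did not use strand, which the sources used here do not give.

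The other genes of the collagen pathway were read from fixed lists. Between the mesenchymal layers, 1 of 14 tested genes of collagen synthesis and secretion was lower in endoneurial-like than in epineurial-like cells and 0 were higher, next to 5.55% lower and 4.53% higher over all genes. This was P4ha3, a subunit of prolyl 4-hydroxylase (-5.12 ± 0.77). It may have passed the filter mainly through epineurial-like cells, so its p-value is not given. Of 8 genes of procollagen processing and cross-linking 3 were lower, namely Lox (-3.09 ± 0.62, edgeR adjusted p = 0.000957) and Loxl1 (-2.90 ± 0.63, 0.00212), the lysyl oxidases that cross-link fibers, and Bmp1 (-2.16 ± 0.37, 0.000167), a procollagen C-proteinase. Adamts14, a procollagen N-proteinase, was higher (1.92 ± 0.61, edgeR adjusted p = 0.0406). Of 7 receptors Itga11 (-2.36) and Itga2 (-3.76) were lower, and of 8 genes of collagen breakdown only Timp2 (-1.84), an inhibitor of metalloproteinases.

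Against the same layers, Schwann-like cells had 11 of 14 synthesis genes lower, endothelial-like cells 12 and VSM/pericyte-like cells 12, and 0 higher in each. Over all genes 19.6%, 19.0% and 14.1% were lower. Collagen-binding integrin genes went the other way in part. Itga1 was higher in perineurial-like (2.48 ± 0.42, edgeR adjusted p = 0.000354), endothelial-like (1.57 ± 0.37, 0.00125) and VSM/pericyte-like cells (3.89 ± 0.36, 4.24e-09), and Itga2 was higher in Schwann-like (3.55 ± 0.62, 4.44e-05) and endothelial-like cells (3.32 ± 0.65, 0.00015).

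In endoneurial-like cells at 3 DPI, 4 of 12 synthesis genes were at least 2-fold above the uninjured level (P4hb, Plod2, Plod3 and Sec23a), with 3 of 8 cross-linking genes (Lox, Loxl2 and Loxl3), 1 of 4 receptors (Mrc2) and 2 of 6 breakdown genes (Timp1 and Timp3), and 0 were below it. Over all genes 15.0% were above and 7.78% below. Lox was at 138 CPM at 3 DPI and 10.3 CPM uninjured, and Timp1 at 1972 and 16.0 CPM. In neonatal perineurial-like cells 7 of 12 synthesis genes were past the fold upward (11.4% of all genes), among them Serpinh1, the collagen chaperone, at 2579 and 1889 CPM against 683 CPM. Lox was at 1013 and 601 CPM there against 16.5 CPM in uninjured nerve.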

How the data were processed

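The authors deposited 1 matrix of raw UMI counts per library, made from Drop-seq reads aligned to mm10 per the labels; no source used here gives the gene annotation or strand setting, and nothing was normalized before deposit. Cells with at least 200 genes, at most 10% mitochondrial and 5% hemoglobin UMIs were kept, and the top 5% of scrublet doublet scores per library (609 cells) were removed with scanpy 1.11.5. Each adult library was clustered alone and the neonatal ones together in Seurat 5.3.0 (2000 variable genes, 20 components, resolution 0.4), with collagen, mitochondrial and hemoglobin genes left out. Clusters were named from fixed marker lists, with naming thresholds set after clusters were seen. UMIs were summed per class and library (at least 20 cells). Classes were compared with edgeR 4.0.16 (quasi-likelihood, library as block, Benjamini-Hochberg at 0.05), tested on simulated data. Condition ratios have exact conditional 95% intervals, and intervals cover counting error only. A count of 0 was set to a floor of 3 counts for lower bounds. Library totals ran from 4513814 to 8123103 UMIs, which limits rare genes. Named were, per contrast, up to 6 called members and, per ratio, up to 5 members past the fold in each direction, by size, with a fixed list of common collagens; others, such as Col4a3, Col4a4 and Col6a5, were chosen after their values were seen. Alternatives were DESeq2 1.42.0, no low-count filter, other clusterings, thinning to 500 UMIs and leaving out each library, and, chosen after seeing the data, subtraction of free RNA, estimated per gene as the lower of the mean UMIs per immune-like and per endothelial-like cell. The members and lists were chosen with earlier results of these data known. The 13200 barcodes of the files gave 11612 kept cells.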

Additional observations from a re-analysis of the deposited data

Results flagged for a closer look

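For 5 collagens the level at 3 DPI lay at least 2-fold above the uninjured level in 1 cell class and at least 2-fold below it in another. Each condition is 1 library, so these differences between classes were not tested. Col15a1 had a ratio of 2.04 in endothelial-like and 0.438 in endoneurial-like cells. Col1a2 had 0.493 in endoneurial-like cells but 4.09 in the VSM/pericyte-like class, and Col3a1 had 0.456 and 3.54. Col28a1 had 2.62 in endoneurial-like and 0.454 in Schwann-like cells. Col4a1, a basement membrane chain, had 2.03 in epineurial-like, 3.17 in endothelial-like and 3.39 in VSM/pericyte-like cells, and 0.425 in Schwann-like cells.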

How the results depend on the processing

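No paired analysis was possible because the labels give no replicate numbers, and each library is already the block of the class comparisons. Subtraction of free RNA left 5 collagens called between endoneurial-like and epineurial-like cells (10 before), 0 in perineurial-like cells (4 before, edgeR, with 5 at an unadjusted p under 0.05, and 3 called by DESeq2 on the full data), 9 in Schwann-like (23 before) and 8 in VSM/pericyte-like cells (22 before), and moved the median of all genes by 0.37, -0.08, -0.22 and -0.15. Calls over all genes fell as well, from 1068 to 134 between endoneurial-like and epineurial-like cells, from 483 to 28 in perineurial-like and from 3714 to 1383 in Schwann-like cells. These were calls among 10587 genes before and 9403 after the subtraction. The fall from 22 to 8 in VSM/pericyte-like cells is given without such a count, so it does not single out collagens. After subtraction, 5 collagens were past the fold in epineurial-like (3 before) and 11 in Schwann-like cells (6 before) at 3 DPI, and 12 in neonatal Schwann-like cells (6 before). Perineurial-like calls numbered 7 with no filter on low counts and 2 when cells were classed singly by marker genes. Leaving out 1 library gave 8 to 11 calls between endoneurial-like and epineurial-like cells, 2 (without neonatal FACS) to 4 in perineurial-like, 21 to 24 in Schwann-like, 22 to 25 in endothelial-like and 19 to 22 in VSM/pericyte-like cells. With no minimum on CPM or UMIs, 25 collagens were past the fold at 3 DPI in endoneurial-like, 7 in epineurial-like, 10 in Schwann-like and 19 in endothelial-like cells, and thinning left 4 of 10 in endothelial-like cells. Ratios that changed sign were, as log2, Col26a1 (-0.69, from 1.67) and Col27a1 (-0.25, from 2.66) in thinned neonatal perineurial-like cells, Col1a1 (-0.058) and Col3a1 (-0.076) in neonatal Schwann-like cells classed by marker genes, and Col6a1 (1.03, from -1.19) in the same class after subtraction of free RNA. The cause was not tested, other than that no minimum admits more genes and thinning fewer. Depth limits members under about 20 UMIs in a class.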

Other observations

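Within the epineurial-like class, collagens differed between clusters. In uninjured nerve the cluster led by Comp and Gdf10 (285 cells) had 702 CPM of Col8a1, 440 CPM of Col15a1 and 687 CPM of Col14a1, and the cluster led by Pi16 and Krtdap (91 cells) had 22.7, 62.4 and 1345 CPM. At 3 DPI the Comp-led cluster (173 cells) had 1213 CPM of Col8a1, 620 CPM of Col15a1 and 1303 CPM of Col14a1, and the Pi16-led cluster (262 cells) 93.0, 261 and 1873 CPM. The order of the clusters was the same for the 3 genes in both libraries. Cells of 1 library are not replicates, so these values have no test.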
